A study of Homo sapiens with 6 samples.

Results

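The Krüppel-like factors are transcription factors that share a row of zinc fingers at the carboxyl end and bind GC-rich DNA, above all the GC box and the CACCC box of promoters. The rest of the protein differs between members and fixes the partner that is recruited, so that some members act mainly as activators and others, which bind the corepressors SIN3A or CtBP, mainly as repressors. In epithelial cells members of the family are known for opposite parts in growth and differentiation, and several respond within hours to growth factors, hormones, TGF-beta or stress. The 10 genes described here, KLF2, KLF3, KLF4, KLF5, KLF6, KLF7, KLF9, KLF10, KLF11 and KLF13, were taken as the rows of the count table with exactly these symbols, and all 10 were found among the 59653 genes of the table. Each of the 10 passed the filter on low counts, a minimum of 5 normalized counts reached in 3 or more libraries, as did 19008 genes in all.

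SK-OV3 is a human ovarian cancer cell line, labelled as wild type, though the authors state that these cells do not express p53. The same cells were used in both groups. The 3 siControl libraries came from cells transfected with a non-targeting siRNA pool and the 3 siPVT1 libraries from cells transfected with a pool of siRNAs against the long non-coding RNA PVT1, at 50 nM and for 48 h in each case. The RNA was bulk RNA of 1 cell line, and the labels do not say whether replicates were separate cultures, so the p-values measure the spread between these libraries, which may be technical. With 1 siRNA pool in each group, the loss of PVT1 and any other effect of the siPVT1 pool cannot be told apart.

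The table held between 28383171 and 35059576 estimated counts in a library. PVT1, the targeted RNA, had 3298, 4090.5 and 3377 normalized counts in the siControl libraries (replicates 1, 2 and 3 in this order, as throughout), and in siPVT1 it had 2349.7, 2111 and 2062. The groups did not overlap, and its log2 fold change was -0.72 (SE, the standard error, 0.0967, adjusted p = 3.42e-04 in the quasi-likelihood test of edgeR). Of 11 epithelial and ovarian carcinoma markers, each had counts in some library, and KRT8, KRT18, PAX8 and ERBB2 had no fewer than 896 normalized counts in any, whereas CDH1, MUC1 and EPCAM were low. Of these 11, 5 rose and 2 fell past the adjusted p-value, beside 29.5% and 28.4% of all genes tested. Among them were MSLN (7.68-fold higher), KRT19 (4.91-fold higher), PAX8 (2627 ± 23.6 to 5254 ± 609 normalized counts), WT1 (2.02-fold lower) and ERBB2 (1.34-fold lower). MUC16 had 199, 635 and 17.9 normalized counts in the siPVT1 libraries, and CDH1 had 13.4, 47.0 and 0. Of 10 markers of other cell types, CD3E was at 0 throughout and 3 markers, CD3E included, had at most 3 counts in every library. The sum of these 10 markers ran from 2083 to 2126 normalized counts in siControl and from 8619 to 10901 in siPVT1, nearly all of it CDH5, the vascular cadherin, which had 1990.3 to 2004 normalized counts in siControl and 8260.2 to 10470.2 in siPVT1. Of the 6 markers of other cell types that could be tested, 5 passed both thresholds, which 11.8% of all genes passed as higher and 9.64% as lower. The endothelial CDH5, PECAM1 (37.5 ± 3.73 to 299 ± 24.3, adjusted p = 1.64e-06) and VWF (24.4 ± 7.09 to 77.4 ± 10.1, adjusted p = 6.71e-04) rose. CD79A and CD14 fell from means of 17.3 and 7.66, CD14 without passing in DESeq2 (adjusted p = 0.145). The part of these cells or genes in the changes below was not tested, and in bulk RNA a change in the number of cells of a kind and a change in RNA per cell cannot be told apart.

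Normalized counts are the deposited counts scaled to the mean effective library size after TMM, and a log2 fold change is siPVT1 over siControl throughout. Every one of the 10 genes differed between siPVT1 and siControl past an adjusted p-value of 0.05, with 7 higher and 3 lower in siPVT1. The changes ran from a 4.44-fold increase of KLF9 to a 1.76-fold decrease of KLF4. Among all genes tested, 29.5% passed the adjusted p-value as higher and 28.4% as lower, so that passing it was common in these libraries. Only KLF9 and KLF7 also reached an absolute log2 fold change of 1, which is 2 of 10 higher beside 11.8% of all genes. None of the 10 was lower past both thresholds, beside 9.64% of all genes. That count of 0 was the same in edgeR and in DESeq2, while 3 members were lower at an unadjusted p under 0.05.

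The 3 siPVT1 libraries did not overlap the 3 siControl libraries for any of the 10 genes, beside 65.6% of all genes tested. The median log2 fold change of the members was 0.31, against 0.0014 over all genes, and their median absolute log2 fold change was 0.47, against 0.51 over all genes. The family thus moved in both directions and, in size, close to the middle of the table. KLF9 and KLF7 were the exceptions in size, since 5.37% of genes had a larger absolute change than KLF9 and 17.6% a larger one than KLF7. When libraries were scaled by their total count in place of TMM, the median of all genes shifted to -0.15. Past the adjusted p-value 4 members were then higher and 3 lower, beside 11356 of all genes that passed the filter with that scaling, in either direction.

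**Figure D1:**
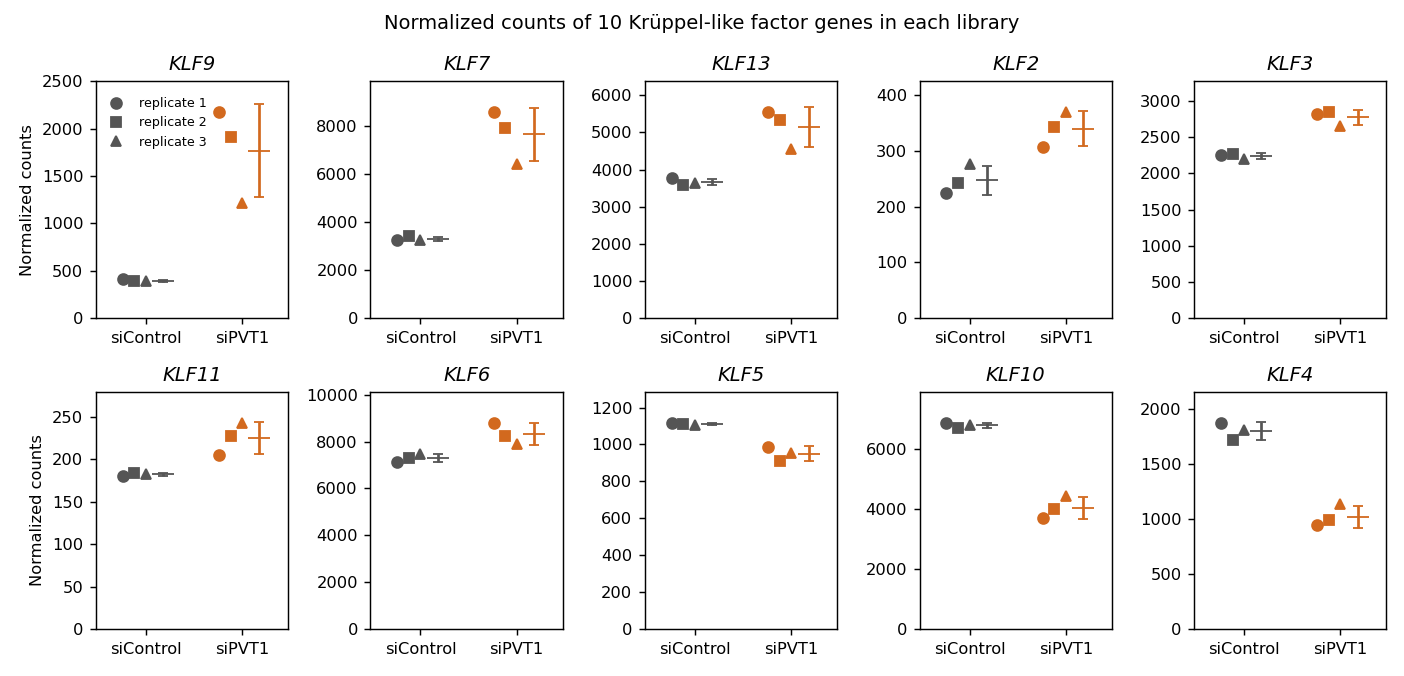
Normalized counts of the 10 genes (vertical axes, linear and starting at 0) in the 3 siControl libraries (grey) and the 3 siPVT1 libraries (orange). Marker shapes give replicates, and the bars to the right of the points give the mean and SD. The groups are separate in every panel, with the largest fold between them for KLF9, from 389 to 409 in siControl and from 1219.6 to 2177 in siPVT1.

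**Figure D2:**
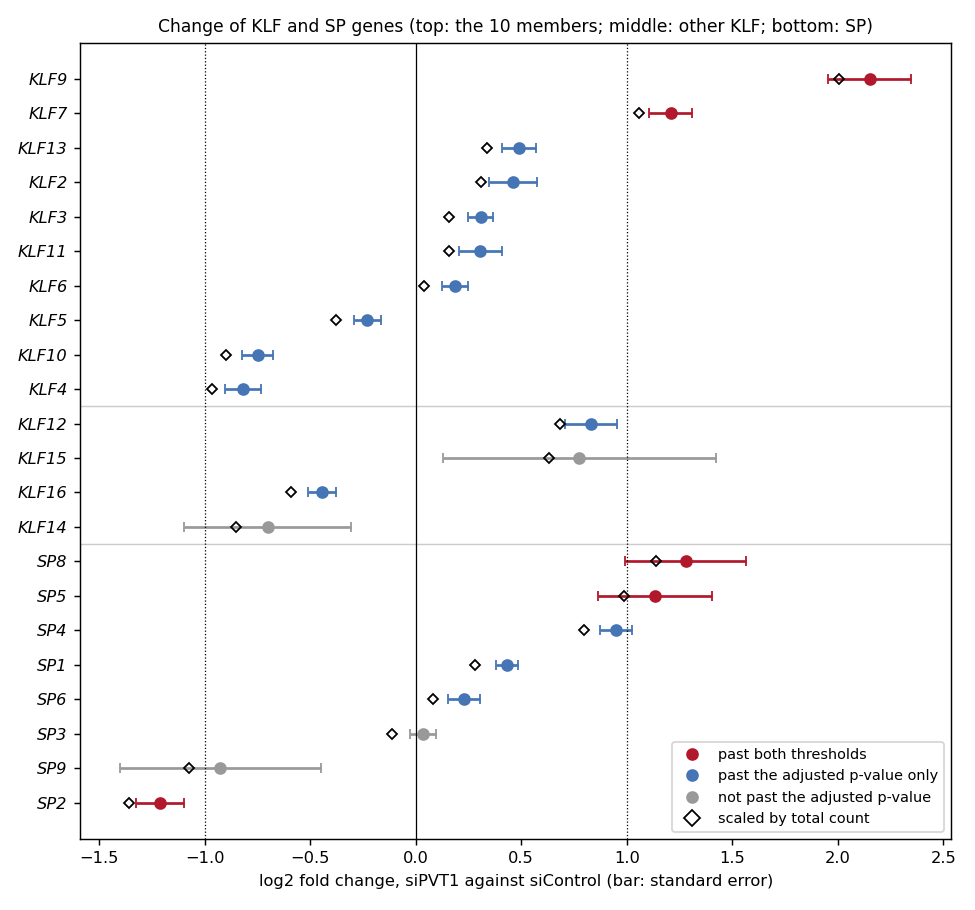
Log2 fold change of siPVT1 over siControl (horizontal axis) with its standard error for the 10 genes at the top, the other KLF genes tested in the middle and the SP genes tested at the bottom. Filled points are coloured by the thresholds passed, dotted lines mark a log2 fold change of 1 in either direction, and open diamonds give the value after scaling by the total count. KLF9 and KLF7 lie beyond the dotted line, and every diamond lies to the left of its point.

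The promoters of 3 members are shown because they carry the family's own binding letters to very different degrees and belong to the 2 members that rose past both thresholds and the member that fell most. Each is the stretch of 250 bases before a RefSeq start on GRCh38.p14, the one nearest the start of the canonical transcript. It is read 5′ to 3′ on the strand of the gene. The GC box (GGGCGG on either strand) and the CACCC box (CACCC on either strand) are in capitals. For KLF7, 4 starts were listed and only 1 was read, while KLF9 and KLF4 had 1 each. The stretches of KLF7 and KLF4 lie within the annotated gene, which reaches further upstream than the canonical transcript. The stretch of KLF9 is chr9:70414658-70414907 (minus strand), that of KLF7 is chr2:207165949-207166198 (minus strand) and that of KLF4 is chr9:107489770-107490019 (minus strand).
KLF9: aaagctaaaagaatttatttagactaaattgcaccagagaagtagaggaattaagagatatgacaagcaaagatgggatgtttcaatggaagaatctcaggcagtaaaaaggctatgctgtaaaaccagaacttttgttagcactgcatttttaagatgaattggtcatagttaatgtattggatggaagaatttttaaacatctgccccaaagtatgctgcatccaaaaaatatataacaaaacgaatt
KLF7: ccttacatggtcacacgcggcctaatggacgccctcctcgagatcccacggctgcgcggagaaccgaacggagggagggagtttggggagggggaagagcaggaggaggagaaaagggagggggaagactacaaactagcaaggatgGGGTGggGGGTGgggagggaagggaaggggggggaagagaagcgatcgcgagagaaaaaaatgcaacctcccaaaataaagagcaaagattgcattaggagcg
KLF4: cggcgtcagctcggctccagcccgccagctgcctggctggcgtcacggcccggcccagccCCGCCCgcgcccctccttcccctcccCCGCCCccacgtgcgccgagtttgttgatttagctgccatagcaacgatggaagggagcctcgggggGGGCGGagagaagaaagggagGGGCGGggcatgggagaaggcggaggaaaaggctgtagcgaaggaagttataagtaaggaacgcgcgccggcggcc
The KLF9 stretch held neither motif, had a GC content of 32.4% and held 2 CCAAT boxes (CCAAT on either strand). The KLF7 stretch held 2 CACCC boxes and no GC box at a GC content of 58.0%, and the KLF4 stretch held 4 GC boxes and no CACCC box at 69.2%. Over 35116 promoter stretches of the same length, 42.6% held a GC box, 54.7% a CACCC box and 32.0% a CCAAT box, and the median GC content was 58.0%.

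Promoter stretches were read for 8 of the 10 members, without KLF3 and KLF10. Genes on chromosome 8, where KLF10 lies, were left out of this reading. The 5 stretches not shown, those of KLF2, KLF5, KLF6, KLF11 and KLF13, had a GC content from 70.8% to 80.0%. KLF2 held 4 GC boxes, KLF13 held 3, and KLF5, KLF6 and KLF11 held 2 each. Of these 5 genes, all but KLF5 were higher in siPVT1. KLF5 and KLF13 also held the CACCC box. As in KLF9, 2 CCAAT boxes each were found in KLF5, KLF6 and KLF13. The CACCC box of KLF13 overlapped a GC box. The start read for KLF11, the nearer of 2 listed, was 279 bases downstream of that of its canonical transcript. Its stretch thus lay within that transcript. KLF5 also had 2 listed starts, and its stretch lay within the annotated gene. The stretches of the 7 members other than KLF11 ended just before their canonical starts. The E-box (CACGTG) was found once each in KLF4, KLF6 and KLF11, beside 6.34% of all stretches, and the core letters of the hypoxia response element (ACGTG on either strand) in these same 3, beside 18.5%, both matches lying within the E-box. None of the 8 held the letters TATAAA, the cyclic AMP response element TGACGTCA, the antioxidant response element TGACNNNGC or the CArG box, which were found in 10.7%, 1.65%, 10.9% and 1.16% of all stretches. These are matches of letters, and binding was not measured.

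Of the members that act through SIN3A, KLF9 and KLF13 rose, KLF11 rose little and KLF10 fell. KLF9, a repressor known as a target of glucocorticoid and thyroid hormone receptors and a brake on growth in several epithelia, had 409, 395 and 389 normalized counts in siControl replicates 1, 2 and 3. In siPVT1 it had 2177, 1913 and 1219.6. Every siPVT1 library was thus far above every siControl library, although replicate 3 stood well below the other two, and the SD was 495 in siPVT1 against 10.6 in siControl. The change on the log2 scale was 2.15 (SE 0.197, adjusted p = 4.48e-05) and ran from 1.96 to 2.35 when each library was left out in turn. KLF9 is a gene of 2 exons at chr9:70384604-70414657 (minus strand).

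KLF13, which regulates the chemokine CCL5 in T cells and is broadly expressed, had 3759.6, 3590.4 and 3649 normalized counts in siControl and 5549, 5332 and 4540.2 in siPVT1. All siPVT1 libraries were higher, replicate 3 the least, and KLF13 rose by 0.49 in log2 (SE 0.0810, adjusted p = 0.00110). KLF11, a TGF-beta-inducible repressor also known for its part in pancreatic beta cells, was the scarcest member, with 180.0, 184 and 183 normalized counts in siControl and 205, 227 and 243 in siPVT1. The highest siControl and the lowest siPVT1 library of KLF11 were 184 and 205, and its log2 fold change of 0.31 (SE 0.102) had an adjusted p = 0.0307. The call for KLF11 was lost in 9 of 12 alternatives, with an adjusted p of up to 0.220.

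KLF10, the other TGF-beta-inducible member, best known as an early response gene that restrains growth, had 6895, 6731 and 6806 normalized counts in siControl and 3705, 4022 and 4429 in siPVT1. Every siPVT1 library lay below every siControl library, with replicate 3 the nearest. In log2, KLF10 fell by 0.75 (SE 0.0728, adjusted p = 6.12e-05), a 1.68-fold decrease, and by 0.90 after scaling by the total count.

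KLF3, a repressor that binds the CtBP corepressors, had 2258, 2271 and 2193 normalized counts in siControl and 2819.7, 2848 and 2649.7 in siPVT1. The gap between the groups was small but clear of the spread, and KLF3 rose by a log2 value of 0.31 (SE 0.0581, adjusted p = 0.00221). After scaling by the total count it was 0.16, and the adjusted p of 0.0513 no longer passed.

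Among the members that act mainly as activators, KLF7 rose most. KLF7, known for its part in the outgrowth of neurons and expressed widely at low levels, had 3259, 3393 and 3256 normalized counts in siControl replicates 1, 2 and 3. In siPVT1 it had 8564, 7918 and 6419. The groups were far apart, the SD was 78.5 in siControl and 1101 in siPVT1, and replicate 3 was again the lowest siPVT1 library. In log2 terms the increase was 1.21 (SE 0.102, adjusted p = 3.02e-05), ran from 1.10 to 1.30 without each library in turn, and was 1.06 after scaling by the total count. In a test against a 2-fold change in place of no change, KLF9 kept its call (adjusted p = 0.00126) and KLF7 did not (adjusted p = 0.0829).

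KLF6, an injury-induced activator often described as a tumour suppressor, was among the most abundant members, with 7137, 7293 and 7481 normalized counts in siControl and 8811, 8261 and 7883 in siPVT1. Its change was the smallest of the 10, at 0.19 in log2 (SE 0.0609, adjusted p = 0.0282). The call for KLF6 was lost in 8 of 12 alternatives, among them scaling by the total count, where the log2 fold change was 0.04 and the adjusted p = 0.615. KLF2, which maintains quiescence in endothelium and lymphocytes, had 225, 241 and 275 normalized counts in siControl and 307, 342 and 369 in siPVT1. The 3 siPVT1 libraries of KLF2 were all higher, replicate 3 the most, and the log2 difference was 0.46 (SE 0.113, adjusted p = 0.00849).

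KLF4 and KLF5 have opposite roles in many epithelia, where KLF4 goes with differentiation and arrest and KLF5 with proliferation, and both were lower in siPVT1. KLF4, also one of the factors used to reprogram cells to pluripotency, had 1879.8, 1723 and 1809 normalized counts in siControl and 943, 989 and 1136 in siPVT1. The groups lay far apart, and in log2 KLF4 fell by 0.82 (SE 0.0840, adjusted p = 8.10e-05). KLF5 had 1118, 1112 and 1106 normalized counts in siControl and 988, 908 and 951 in siPVT1. Its siControl libraries were very close to each other (SD 6.15), and it fell by 0.23 (SE 0.0644, adjusted p = 0.0154). The adjusted p of KLF5 was 0.0545 without siControl replicate 1 and 0.0511 without siControl replicate 3.

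**Figure D3:**
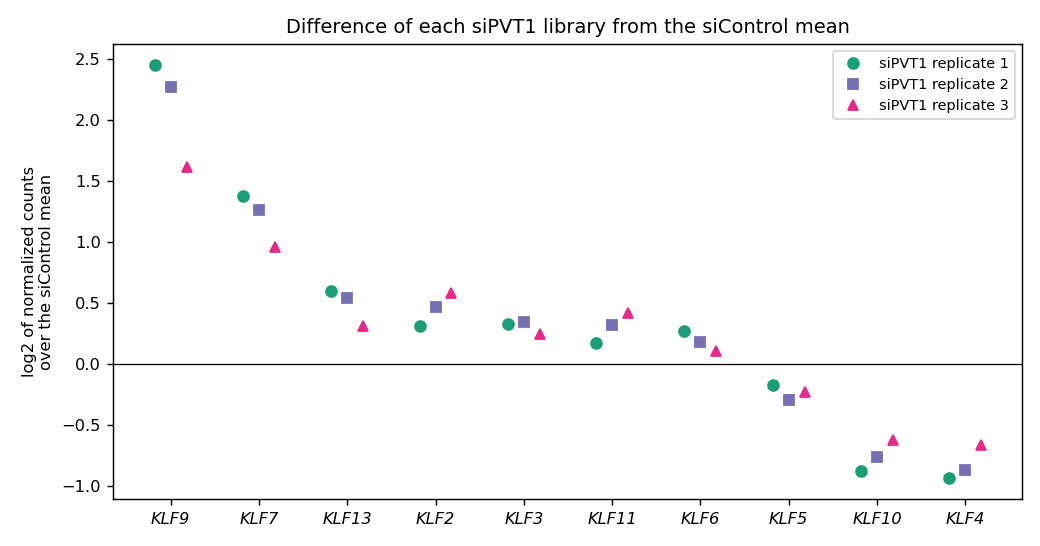
Log2 of the normalized counts of each siPVT1 library over the siControl mean (vertical axis) for the 10 genes (horizontal axis), with 1 marker for each siPVT1 replicate. The line at 0 is the siControl mean, and replicate 3 is the marker nearest to it for KLF9, KLF7, KLF13, KLF3, KLF6, KLF10 and KLF4.

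The siPVT1 libraries kept a common order for most members. Replicate 3 was the siPVT1 library nearest to the siControl mean for 7 of the 10 genes, and replicate 1 was the nearest for KLF2, KLF5 and KLF11. For KLF9, replicates 1, 2 and 3 lay 2.45, 2.27 and 1.62 above the siControl mean on the log2 scale, and for KLF4 they lay 0.94, 0.87 and 0.67 below it. Over the 11007 genes past the adjusted p-value, replicate 3 was the nearest for 59.0%, so the order was shared by much of the table. Replicate 3 was also the siPVT1 library with the fewest normalized PVT1 counts, 2062 against 2111 and 2349.7, though not the fewest before normalization (2195 counts against 1932 and 2110), and its part in the values above was not tested. Without it the log2 fold changes of KLF9 and KLF7 were 2.35 and 1.30.

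Levels of different genes were compared per length, as TMM-normalized CPM (counts scaled to one fixed library size) per kilobase of annotated exon. In siControl the order was KLF10 at 57.3 ± 0.687 (SD, n = 3), KLF6 at 38.2 ± 0.901, KLF4 at 15.8 ± 0.687, KLF13 at 12.5 ± 0.293, KLF7 at 11.0 ± 0.262, KLF3 at 10.6 ± 0.198, KLF5 at 9.71 ± 0.0537, KLF2 at 2.82 ± 0.293, KLF9 at 2.46 ± 0.0653 and KLF11 at 1.27 ± 0.0141. No neighbours in that order overlapped in siControl. KLF10 alone had 35.4% of the summed level of the 10 genes in siControl, and KLF9 had 1.52%. In siPVT1 KLF6 came first at 43.5 ± 2.44, followed by KLF10 at 34.1 ± 3.05, KLF7 at 25.5 ± 3.68, KLF13 at 17.5 ± 1.81, KLF3 at 13.2 ± 0.510, KLF9 at 10.9 ± 3.05, KLF4 at 8.97 ± 0.884, KLF5 at 8.29 ± 0.349, KLF2 at 3.87 ± 0.353 and KLF11 at 1.57 ± 0.135. KLF10 and KLF6 exchanged the leading places, KLF7 moved from rank 5 to rank 3, and KLF9 moved from rank 9 to rank 6, where its libraries overlapped those of KLF3, KLF4 and KLF5. KLF4 moved from rank 3 to rank 7 and then overlapped KLF5. With the length of the longest transcript in place of all exons joined, KLF3 stood above KLF7 in siControl and KLF4 above KLF9 in siPVT1.

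The total was nearly constant while its makeup moved. The summed level of the 10 genes was 162.3, 160.4 and 162.4 in the siControl libraries, and in siPVT1 it was 173.4, 169.1 and 159.7. The groups overlapped, with a ratio of 1.04 and p = 0.4 in a two-sided exact permutation test, which cannot go below 0.1 for 3 libraries against 3. After scaling by the total count the ratio was 0.933. Between siControl and siPVT1 the share of KLF10 went from 35.4% to 20.4%, that of KLF4 from 9.78% to 5.38%, that of KLF7 from 6.82% to 15.2% and that of KLF9 from 1.52% to 6.49%.

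**Figure D4:**
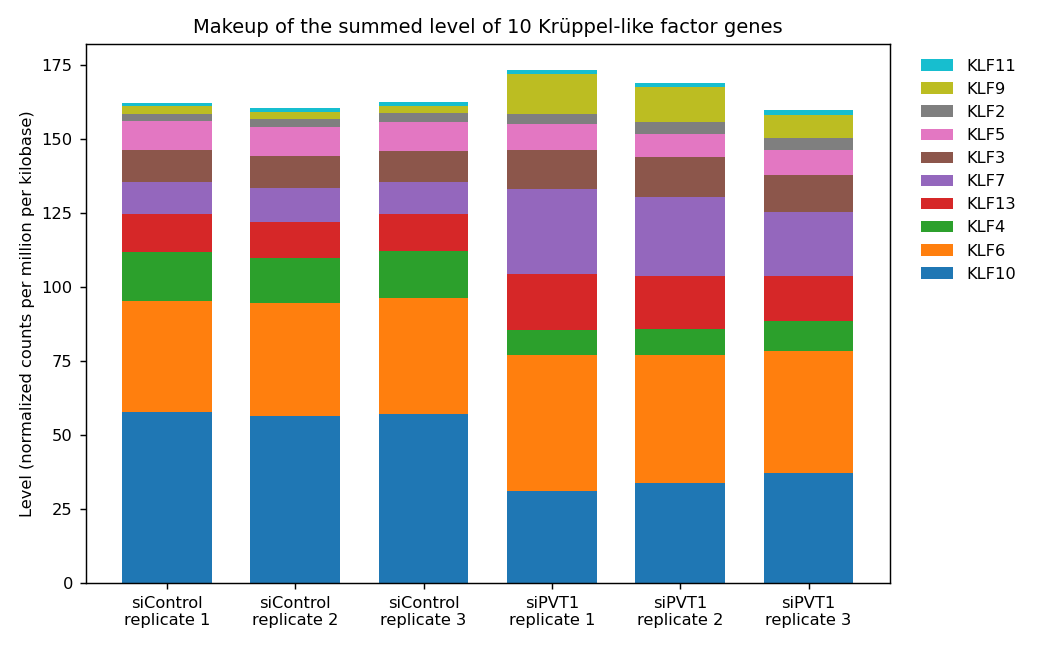
Level of the 10 genes in each library (vertical axis, normalized CPM per kilobase, starting at 0), stacked by gene, for the 3 siControl and 3 siPVT1 replicates. The stacks are of similar height, between 159.7 and 173.4, while the KLF10 and KLF4 layers are thinner and the KLF7 and KLF9 layers thicker in siPVT1.

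The other 8 KLF genes of the annotation were mostly scarce. KLF12, a CtBP-binding repressor like KLF3 and the next protein-coding gene after KLF5 on its chromosome, had 709, 683 and 642 normalized counts in siControl and 1381, 1255 and 986 in siPVT1, and its log2 fold change came to 0.83 (SE 0.123, adjusted p = 5.79e-04). KLF16, a SIN3A-binding repressor, went from 715 ± 12.4 to 526 ± 6.66 (SD, n = 3) and fell by 0.44 (adjusted p = 7.06e-04). KLF14 and KLF15, at siControl means of 14.1 and 4.49 normalized counts, did not pass (adjusted p = 0.162 and 0.338). KLF1, KLF8, KLF17 and KLF18 were below the filter, with at most 6.68 normalized counts in a library.

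Of the 9 SP factors, which bind the same GC boxes as the Krüppel-like factors, 8 were tested. Past the adjusted p-value 5 were higher and 1 was lower, beside 29.5% and 28.4% of all genes. SP2 fell from 880.1 ± 19.4 to 379.5 ± 60.3 normalized counts (log2 fold change -1.21, adjusted p = 4.93e-05), and SP4 rose from 347 ± 11.0 to 669 ± 26.5 (0.95, adjusted p = 2.43e-05). SP1 rose by a log2 fold change of 0.43 (adjusted p = 2.22e-04), while SP3 had values of 3050.3 ± 142 and 3125 ± 86.8 (adjusted p = 0.649). SP5 and SP8 passed both thresholds as higher at low levels, with at most 25.1 and 43.7 normalized counts in a library. SP6 rose by 0.23 (adjusted p = 0.0337) but did not pass in DESeq2 (adjusted p = 0.0643) or with the replicate block (adjusted p = 0.0620 in edgeR). After scaling by the total count 4 SP factors were higher and 1 lower, beside 11356 of all genes in either direction. SP6 then no longer passed (adjusted p = 0.391).

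The corepressors and coactivators that the factors recruit moved in both directions. Past the adjusted p-value 5 of 9 were higher and 1 lower, beside 29.5% and 28.4% of all genes. SIN3A, the partner of KLF9, KLF10, KLF11 and KLF13, rose from 1930.0 ± 26.0 to 2982 ± 298 normalized counts (log2 fold change 0.63, adjusted p = 2.50e-04), and the histone deacetylases HDAC1 and HDAC2 rose by 0.34 and 0.23 (adjusted p = 0.00668 and 0.0183). CTBP1 and CTBP2, the partners of KLF3, had log2 fold changes of -0.10 and 0.14 and did not pass (adjusted p = 0.271 and 0.0703). The acetyltransferases were unlike each other. CREBBP fell from 3631 ± 106 to 1814 ± 193 normalized counts (adjusted p = 2.77e-05), KAT2B rose from 359.8 ± 6.81 to 727 ± 12.3 (adjusted p = 1.18e-05) and EP300 rose by 0.22 in log2 (adjusted p = 0.00665). After scaling by the total count 2 of the 9 were higher and 2 lower, with HDAC1, HDAC2 and EP300 no longer passing and CTBP1 passing as lower.

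In endothelium KLF2 and KLF4 are induced by a route of the kinases MAP3K3, MAP2K5 and MAPK7 that acts on MEF2 factors and is held in check by KRIT1, CCM2 and PDCD10. Of these 9 genes 4 were higher and 1 lower past the adjusted p-value, beside 29.5% and 28.4% of all genes. MAPK7, the last kinase of the route, rose from 514 ± 15.8 to 809.9 ± 73.8 normalized counts (log2 fold change 0.66, adjusted p = 3.20e-04), and PDCD10 rose by 0.62 (adjusted p = 9.02e-05). MEF2C fell from 182 ± 11.7 to 103 ± 38.9 (log2 fold change -0.83, adjusted p = 0.0227), with 59.2 in siPVT1 replicate 3. MAP3K3 and CCM2 rose by 0.30 and 0.26, and MAP2K5, MEF2A, MEF2D and KRIT1 did not pass. After scaling by the total count 3 of the 9 were higher and 5 lower, with CCM2 no longer passing and those 4 passing as lower.

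Of 7 ubiquitin ligases described as acting on members of the family, 3 were higher and 1 was lower past the adjusted p-value. The shares of all genes were 29.5% and 28.4%. FBXO32 rose from 1747 ± 83.8 to 3562 ± 735 normalized counts (log2 fold change 1.03, adjusted p = 3.88e-04), and VHL and SMURF1 rose by 0.46 and 0.34. BTRC fell by 0.24 (adjusted p = 0.0292). WWP1 and FBXW7, both known to act on KLF5 protein, had log2 fold changes of -0.07 and -0.08 and did not pass. With total-count scaling 3 of the 7 were higher and 3 lower, the latter with WWP1 and FBXW7. Over all genes 11356 then passed in either direction, and the median log2 fold change was -0.15. Protein was not measured.

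Of 11 genes known as targets of the family in other systems, 6 were higher and 1 was lower past the adjusted p-value. The shares of all genes were 29.5% and 28.4%. CDKN1C, a cyclin-dependent kinase inhibitor, rose from 63.3 ± 5.98 to 276 ± 127 normalized counts (log2 fold change 2.12, adjusted p = 8.29e-04), with 404, 273 and 151 in siPVT1 replicates 1, 2 and 3. F3, the tissue factor of coagulation, rose from 1273 ± 86.3 to 3441 ± 693 (log2 fold change 1.43, adjusted p = 6.67e-05). SMAD7, the inhibitor of TGF-beta signalling that KLF10 is known to repress, fell by 0.57 (adjusted p = 4.86e-04), and the receptor TGFBR1 rose by 0.60 (adjusted p = 3.52e-05). PDGFA, LGALS3 and ENG rose by 0.90, 0.38 and 0.25. Under total-count scaling 4 of the 11 were higher and 2 lower, beside 11356 of all genes in either direction. LGALS3 and ENG then no longer passed (adjusted p = 0.0617 and 0.0966).

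The other 4 targets, CDKN1A, CCND1, THBD and NOS3, did not pass the test. CDKN1A, the cell cycle inhibitor that KLF4 is best known to induce, had 14001, 13681 and 13862 normalized counts in siControl and 17064, 12848 and 9573 in siPVT1. Its siPVT1 libraries lay on both sides of the siControl libraries (log2 fold change -0.07, adjusted p = 0.744). THBD, an endothelial target of KLF2, had 1772 ± 4.29 and 1263 ± 393 (adjusted p = 0.0641), and it passed as lower in DESeq2 (adjusted p = 0.0226) and after scaling by the total count (adjusted p = 0.0256). NOS3 had at most 12.4 normalized counts in a library, and CCND1 had a log2 fold change of 0.03 (adjusted p = 0.675).

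**Figure D5:**
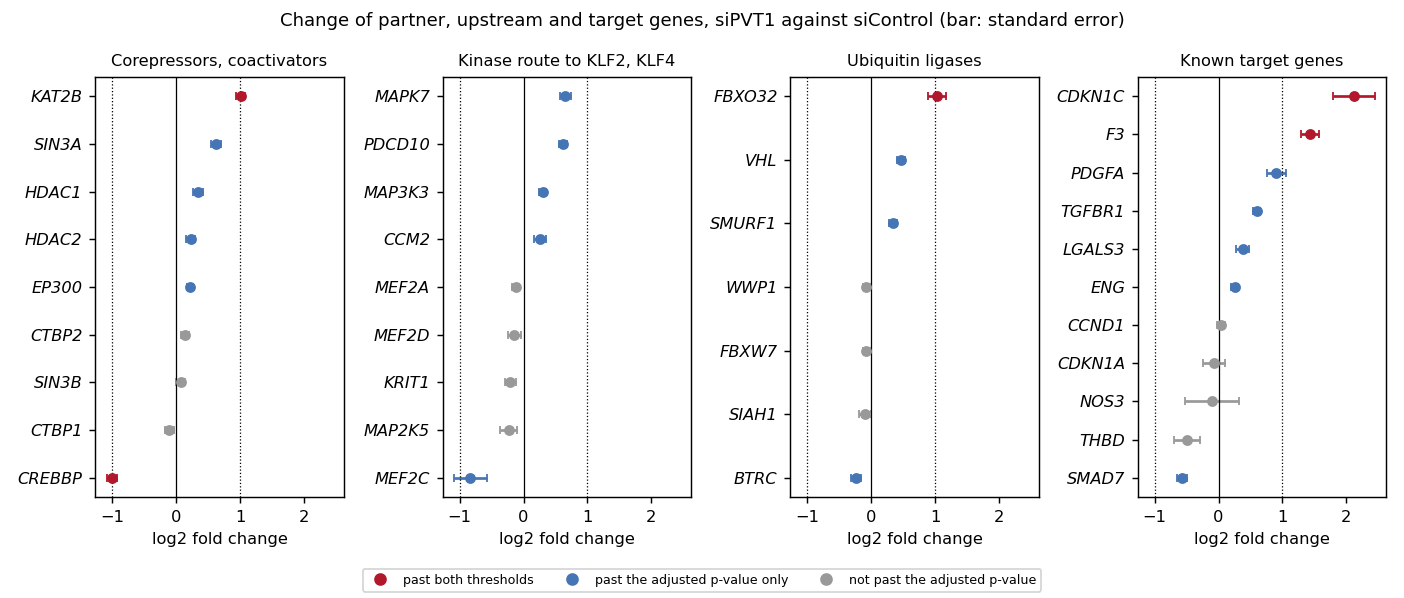
Log2 fold change of siPVT1 over siControl (horizontal axes) with its standard error for 9 corepressors and coactivators, 9 genes of the kinase route to KLF2 and KLF4, 7 ubiquitin ligases and 11 known target genes. Colours give the thresholds passed and dotted lines a log2 fold change of 1 in either direction. Each panel holds higher and lower genes, and CDKN1C and F3 are the genes farthest to the right.

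Around the members, 15 of the 20 nearest protein-coding genes, 1 on each side, had enough counts to be tested. Of these, 5 were higher and 4 lower past the adjusted p-value, beside 29.5% and 28.4% of all genes. SMC5, which lies 29.7 kb from KLF9, had 3748 ± 149 and 3734 ± 77.8 normalized counts in siControl and siPVT1 (log2 fold change -0.01, adjusted p = 0.941), and after scaling by the total count its log2 fold change was -0.15 (adjusted p = 0.0282). CREB1, 356 kb from KLF7, rose by a log2 fold change of 0.48 (adjusted p = 8.87e-04). RAD23B, 153 kb from KLF4, had a log2 fold change of 0.06 (adjusted p = 0.382). CYS1, which lies 1.64 kb beyond the end of KLF11, rose from 64.0 ± 2.33 to 267 ± 49.4 (log2 fold change 2.05, adjusted p = 2.07e-05). PITRM1, the nearest protein-coding gene below KLF6 at 603 kb, fell by 1.55 on the log2 scale (adjusted p = 1.19e-06). OTUD7A, 39.7 kb from KLF13, rose by 1.92 (adjusted p = 0.00383), and TLR10, 70.7 kb from KLF3, fell by 3.18 (adjusted p = 0.00454). Both were at low counts, with siControl means of 6.42 and 7.32.

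Transcripts within or across the members were also read. MYOSLID, a long non-coding RNA annotated antisense to KLF7, had 999, 923 and 987 normalized counts in siControl and 601, 704 and 739 in siPVT1, and it fell by 0.51 on the log2 scale (adjusted p = 0.00166) while KLF7 rose. KLF7-IT1, an intronic transcript of KLF7, had 17.1 ± 6.15 and 31.0 ± 7.39 and did not pass (adjusted p = 0.0620), and KLF3-AS1 had at most 6.06 normalized counts in a library. The strand setting of the counting was not given in the sources used here, so counts of transcripts that overlap a member are uncertain.

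The 3 genes with log2 CPM most like those of KLF9 over the 6 libraries were HERC4 (Pearson r = 0.9999), SIX4 (r = 0.9997) and ETNK2 (r = 0.9996). HERC4 had 6146, 5872 and 5121 normalized counts in siPVT1 replicates 1, 2 and 3, SIX4 had 1756, 1625 and 1347, and ETNK2 had 849, 774 and 620.1. All 3 rose and had their lowest siPVT1 value in replicate 3, as KLF9 did, which follows from choosing them by their likeness to it. The points share the contrast between groups and their libraries, so these values only describe likeness over 6 libraries.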

How the data were processed

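RNA of SK-OV3 cells was sequenced in 3 siControl and 3 siPVT1 libraries. The authors used STAR 2.7.3a with the GENCODE transcriptome (GRCh38) and then Salmon 0.14.1, and deposited estimated counts for each gene symbol, given as whole numbers, unfiltered and not normalized. The versions come from the submitters' processing notes. The table held 28383171 to 35059576 counts per library.

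The whole table was fitted with edgeR 4.0.16 in R 4.3.3 (TMM, quasi-likelihood test, siRNA as the only term). A gene was kept where 3 or more libraries reached 5 normalized counts, and p-values were adjusted by Benjamini-Hochberg over all 19008. Calls past both thresholds needed an adjusted p under 0.05 together with a log2 fold change of 1 or more in either direction. The standard error (SE) was obtained as the size of the log2 value over the square root of F. All adjusted p-values are from this test unless another is named. Likeness was measured on log2 CPM with a pseudocount of 0.1. The scripts were tested on simulated data.

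Gene positions and exon lengths came from GENCODE v44 on GRCh38, a later release than that of the counts, and promoters from RefSeq. The members and gene lists were chosen with earlier results of these data known. Named from each list were genes with the largest changes past both thresholds and those tied to a member by a known role. Others named were PVT1, markers, neighbours, overlapping transcripts and the 3 genes most like KLF9. The results for 2 other genes are not reported here.

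Alternatives were DESeq2 1.42.0, its size factors, total-count scaling, no filter, filterByExpr, a replicate block, each library left out, a test against a 2-fold change and, for levels, the longest transcript.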

Additional observations from a re-analysis of the deposited data

How the results depend on the processing

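The log2 fold changes of all 10 members kept their direction in each of the 12 alternatives run for them. KLF2, KLF4, KLF7, KLF9, KLF10 and KLF13 kept their calls at the adjusted p-value in all 12. KLF3 lost the call in 1, KLF5 in 2, KLF6 in 8 and KLF11 in 9. The cause was not tested. Without 1 library in turn the median log2 fold change of the members ran from 0.28 to 0.32, with the lowest value without siPVT1 replicate 3.

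After scaling by the total count 4 members were higher and 3 lower past the adjusted p-value, beside 11356 of all genes in either direction. The median of the members was 0.16, and the summed level had a ratio of 0.933. Higher past both thresholds were 1 SP factor, 0 corepressors and coactivators and 0 ubiquitin ligases, in place of 2, 1 and 1. Over all genes 1835 were higher and 2355 lower past both thresholds with that scaling. The test against a 2-fold change left 1 member higher, and over all genes 1184 higher and 792 lower in place of 2248 and 1833.

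Libraries with the same replicate number did not deviate together, with correlations of deviations from -0.043 to 0.044, and 2 of the 6 libraries correlated best with their own number, so the numbers were not taken to pair the libraries. With the replicate block 5 members were higher and 3 lower past the adjusted p-value, KLF6 and KLF11 no longer passing (adjusted p = 0.0645 and 0.0579 in edgeR), beside 10446 of all genes past the adjusted p-value with the block and 11007 without it. Past both thresholds 2 members were higher and 0 lower with the block, beside 2158 and 1766 of all genes. THBD passed as lower with it (adjusted p = 0.0319 in edgeR).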
